A study of Mus musculus with 8 samples.

Results

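The collagen genes of mouse liver were followed here, that is, every gene whose symbol is Col, a number, the letter a and a number. The table held 44 such genes among 35204 gene symbols, and 33 of the 44 had a mean of at least 10 normalised counts over the 8 libraries and were tested. A normalised count is the authors' gene count divided by a scaling factor for the library. RNA selected for poly-A tails was sequenced from pieces of liver of wild type C57BL/6J mice. The 3 control libraries came from untreated mice. The 5 libraries called TAZ-CCl4 here came from mice that were given TAZ S89A by HTVI, with EF1a as its promoter, and 30 doses of CCl4 at 3 a week over 10 weeks. HTVI, hydrodynamic tail vein injection, carries plasmid DNA mainly into hepatocytes, TAZ is a coactivator of TEAD transcription factors that the Hippo pathway restrains, S89A removes one of its restraining phosphorylation sites, and CCl4 is a hepatotoxin that scars the liver. By its title, the series concerns hepatocellular carcinoma and a pathway of TAZ with its partner TEAD2. Age and sex are not given in the labels, nor is whether a piece held tumour. With neither a CCl4 group without TAZ S89A nor a TAZ S89A group without CCl4 among these libraries, the 2 agents cannot be told apart.

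A collagen is built of 3 chains that wind into a triple helix through repeats of glycine and 2 further residues. Fibrillar collagens (types I, III and V above all) assemble into the fibres of a scar, type IV collagen forms the sheet of basement membranes, FACIT collagens sit on the surface of fibrils, and the remaining types make beaded filaments, short networks, membrane-anchored chains or the proteoglycan-like types XV and XVIII. In a healthy liver the space between hepatocytes and sinusoids holds little fibrillar collagen. In a scarred liver, activated stellate cells and portal fibroblasts are known as the main makers of types I and III. Hepatocytes are known as a main source of type XVIII, from whose end endostatin is cut.

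The promoters of 5 genes on which the results turn are printed first, from RefSeq (GRCm38.p6), each from 250 bases before to 50 bases after the transcript start and read 5′ to 3′ on the gene's strand. They are 2 chains of the scar fibres that rose (Col1a2 and Col3a1), the pair of type IV chains that start head to head and rose together (Col4a1 and Col4a2), and a type V chain that was lower (Col5a3). Capitals mark the CCAAT box, the GC box GGGCGG, the TEAD motif GGAATG, the AP-1 motif TGANTCA and the TATA motif TATAAA, each searched on both strands.
Col1a2 promoter, chr6:4505368-4505667, plus strand: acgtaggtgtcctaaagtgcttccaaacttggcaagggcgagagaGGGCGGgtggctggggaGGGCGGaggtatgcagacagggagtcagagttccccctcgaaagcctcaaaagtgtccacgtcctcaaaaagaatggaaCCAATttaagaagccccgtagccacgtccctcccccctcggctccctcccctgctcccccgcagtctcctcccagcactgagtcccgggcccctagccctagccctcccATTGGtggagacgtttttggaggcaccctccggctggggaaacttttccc
Col3a1 promoter, chr1:45311288-45311587, plus strand: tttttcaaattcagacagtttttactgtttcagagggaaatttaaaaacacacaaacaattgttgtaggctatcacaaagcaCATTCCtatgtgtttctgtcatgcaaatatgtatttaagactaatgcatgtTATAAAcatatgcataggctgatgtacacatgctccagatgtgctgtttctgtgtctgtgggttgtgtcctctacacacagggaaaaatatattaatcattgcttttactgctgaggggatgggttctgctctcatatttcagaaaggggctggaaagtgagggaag
Col4a1 promoter, chr8:11312777-11313076, minus strand: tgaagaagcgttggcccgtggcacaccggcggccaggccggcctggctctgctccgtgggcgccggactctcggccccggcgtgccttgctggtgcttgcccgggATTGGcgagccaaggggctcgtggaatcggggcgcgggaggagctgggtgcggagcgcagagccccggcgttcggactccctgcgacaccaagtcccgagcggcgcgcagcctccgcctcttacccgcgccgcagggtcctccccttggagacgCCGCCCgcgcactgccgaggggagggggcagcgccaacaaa
Col4a2 promoter, chr8:11312555-11312854, plus strand: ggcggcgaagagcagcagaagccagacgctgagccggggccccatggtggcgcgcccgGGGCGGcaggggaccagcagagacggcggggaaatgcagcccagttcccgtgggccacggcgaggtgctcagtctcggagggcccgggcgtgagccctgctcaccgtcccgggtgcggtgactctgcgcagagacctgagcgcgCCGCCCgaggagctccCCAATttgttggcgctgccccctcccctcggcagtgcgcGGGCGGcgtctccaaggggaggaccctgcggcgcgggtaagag
Col5a3 promoter, chr9:20815018-20815317, minus strand: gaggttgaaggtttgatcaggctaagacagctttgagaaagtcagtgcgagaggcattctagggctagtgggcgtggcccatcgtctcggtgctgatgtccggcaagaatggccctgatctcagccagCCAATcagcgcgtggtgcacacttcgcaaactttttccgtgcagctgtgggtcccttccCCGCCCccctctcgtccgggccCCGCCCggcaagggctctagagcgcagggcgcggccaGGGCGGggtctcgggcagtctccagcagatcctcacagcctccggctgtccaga
The starts of Col4a1 and Col4a2 lay 21 bases apart on opposite strands, and their windows shared 78 bases. RefSeq windows were found for 35 of the 44 collagen genes, 38 windows in all. GGGCGG stood in 23 of the 38 windows, against 35.7% of all 32851 promoter windows of that length. CCAAT stood in 13 of 38 (37.4% of all windows), GGAATG in 5 (14.7%), TATAAA in 5 (13.6%) and TGANTCA in 1 (7.81%). Of the 18 genes that rose and had a window, 13 held GGGCGG, 5 CCAAT, 3 GGAATG, 1 TGANTCA and 1 TATAAA. Among the 4 lower genes the counts were 4, 3, 1, 0 and 0. A match is a description of the letters in a window. In the windows printed here, the GGAATG letters occurred in Col3a1 alone, whose window also held TATAAA and neither CCAAT nor GGGCGG.

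Normalised counts summed to between 29.8 and 35.1 M per control library and between 12.4 and 14.2 M per TAZ-CCl4 library, so setting all libraries to equal totals moved the median change over the whole table from 0.03 to 1.26 (log2), and each sign below is given with that scaling where it turns. The labels place the controls in one library project and the TAZ-CCl4 libraries in another, so project and group cannot be told apart. They do not say that each library is a separate mouse, and p-values measure the spread between these libraries. The titles of the controls carry the letters ICC, which the labels do not spell out, and their descriptions a second sample identifier. Whether the control libraries were also used in another series could not be settled from the labels. In pieces of tissue, more cells of a type and more RNA per cell cannot be told apart. Hepatocyte markers summed to 6.23 to 8.99% of the library total in the controls and 5.89 to 7.55% in the TAZ-CCl4 libraries, with Alb the most abundant, so the tissue label and the markers matched in all 8 libraries.

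Of the 33 tested collagen genes, 23 were higher in the TAZ-CCl4 libraries, 4 were lower and 6 did not pass (limma on log2(value + 1), Benjamini-Hochberg adjusted p under 0.05). Of all 14171 tested genes, 32.4% were higher and 29.8% lower. The median log2 fold change was 1.82 over the tested collagens and 0.03 over all tested genes. A gene that is low in one group can pass the filter only by being high in the other: 7 tested collagens (Col4a6, Col6a5, Col6a6, Col8a1, Col8a2, Col9a3 and Col23a1) passed through the TAZ-CCl4 group alone and 1 (Col25a1) through the controls alone. Of the 25 collagens with a mean of at least 10 in both groups, 16 were higher, 3 lower and 6 not called (median 1.81), against 28.5% higher and 31.3% lower (median -0.05) over all genes so filtered. At equal totals 26 of 33 collagens were higher and 0 lower (median 2.99), against 76.3% higher and 6.39% lower (median 1.26) over all genes. The 8 libraries separated without overlap in 22 collagens that were higher and 3 that were lower, against 30.7% and 29.4% of all tested genes. By class, 5 of 8 fibrillar genes, 5 of 6 type IV genes, 4 of 5 FACIT genes and 9 of 14 other genes were higher. The lower genes were 2 fibrillar and 2 other genes. With a mean of at least 10 in both groups the higher genes were 5 of 8 fibrillar, 4 of 5 type IV, 3 of 4 FACIT and 4 of 8 other genes, and the median of the other genes was 0.77 in place of 1.82 (log2).

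**Figure D1:**
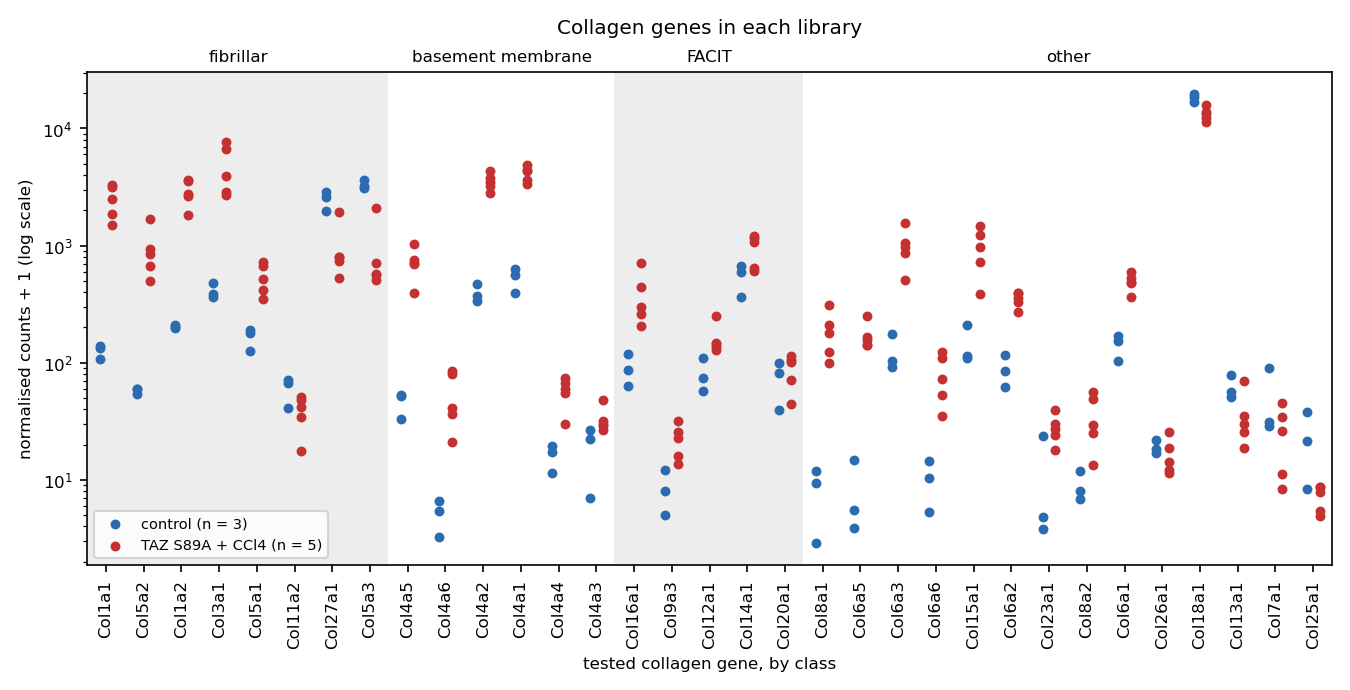
Normalised counts plus 1 on a log axis for the 33 tested collagen genes, by class, with a point for each control (blue, n = 3) and TAZ-CCl4 library (red, n = 5). The 2 groups separate in 25 genes, with red above blue in 22 of them, and Col18a1 is the highest gene in both groups.

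The chains of types I and III, the bulk of scar fibres, all rose, by 3.42 to 4.22 on the log2 scale. Col1a1 (chromosome 11, 94936224 to 94953042; positions are of build mm10), which encodes the chain present as a pair in each type I molecule, stood at 133, 107 and 139 normalised counts in control replicates 1 to 3 and 1511, 1850.3, 2482, 3189 and 3315 in TAZ-CCl4 replicates 1 to 5. Each TAZ-CCl4 library was far above each control. The means were 126 ± 17.3 (SD, n = 3) and 2469 ± 796 (SD, n = 5), and the log2 fold change was 4.22 ± 0.25 (limma, SE and adjusted p = 9.86e-07). Its partner chain Col1a2 (chromosome 6, 4504814 to 4541544) stood at 198, 210.2 and 202 in the controls and 1838, 2664, 2764, 3586 and 3608 in the TAZ-CCl4 libraries, a log2 fold change of 3.78 ± 0.21 (limma, adjusted p = 5.57e-07). Both type I genes were lowest in replicate 1 and highest in replicate 5 of the TAZ-CCl4 group. Col3a1 (chromosome 1, 45311538 to 45349706), whose product mixes with type I in distensible tissue, stood at 363, 480.2 and 385 in the controls and 2702, 2894, 6634, 3942 and 7730.2 in the TAZ-CCl4 libraries. Replicates 3 and 5 were well above the other TAZ-CCl4 libraries, and no library overlapped the controls. Its log2 fold change was 3.42 ± 0.34 (limma, adjusted p = 1.34e-05).

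The 3 type V genes did not move together. Type V is a minor collagen that starts type I fibrils and limits their width, and its common molecule holds a pair of alpha 1 chains and an alpha 2 chain. Col5a2 (chromosome 1, 45374321 to 45503282), which lies 24.6 kb from Col3a1 on chromosome 1, stood at 58.1, 58.2 and 53.4 in the controls and 498, 669.7, 853, 1673 and 941 in the TAZ-CCl4 libraries, highest in replicate 4. Its log2 fold change was 3.89 ± 0.32 (limma, adjusted p = 4.46e-06). Col5a1 (chromosome 2, 27886425 to 28039514) rose less, from 125, 179 and 188 in the controls to 419, 349, 722, 518 and 664 in the TAZ-CCl4 libraries, a log2 fold change of 1.67 ± 0.25 (limma, adjusted p = 0.000251). The groups did not overlap in either gene. Col5a3 (chromosome 9, 20770050 to 20815067), the chain of a rarer type V molecule, was one of the most abundant collagens of the control liver, at 3614, 3089 and 3230.2, against 558, 567, 710.0, 2088 and 507 in the TAZ-CCl4 libraries. Replicate 4 stood far above the other 4 TAZ-CCl4 libraries and still below every control. Col5a3 fell by 2.14 ± 0.40 on the log2 scale (limma, adjusted p = 0.000946), but at equal totals the log2 fold change was -0.89 and did not pass (limma, adjusted p = 0.0639).

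Col27a1 (chromosome 4, 63214004 to 63334991), a fibrillar collagen best known from cartilage, had the same form. It stood at 2845, 1984 and 2598 in the controls and 801, 802, 742, 1924 and 526 in the TAZ-CCl4 libraries, again with replicate 4 apart from the rest, and its groups did not overlap. Its log2 fold change was -1.50 ± 0.34 (limma, adjusted p = 0.00323) at the deposited scaling and -0.25 (limma, adjusted p = 0.522) at equal totals. Col11a2 (chromosome 17, 34039437 to 34066685), a cartilage relative of type V, stood at 39.97, 66.6 and 70.1 in the controls against 16.6, 40.5, 50.1, 46.7 and 33.6 in the TAZ-CCl4 libraries. Its groups overlapped and it did not pass (log2 fold change -0.69 ± 0.39, limma adjusted p = 0.149), and the sign turned at equal totals (0.53). Under quantile normalisation Col11a2 was called lower (-1.62). Of the 8 cartilage markers listed, 2 could be tested (Cnmd at -5.56, called lower, and Prg4 at -0.14, not called, but 1.11 and called higher at equal totals), and Acan, Matn1, Matn3 and Snorc were at 0 in all controls.

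**Figure D2:**
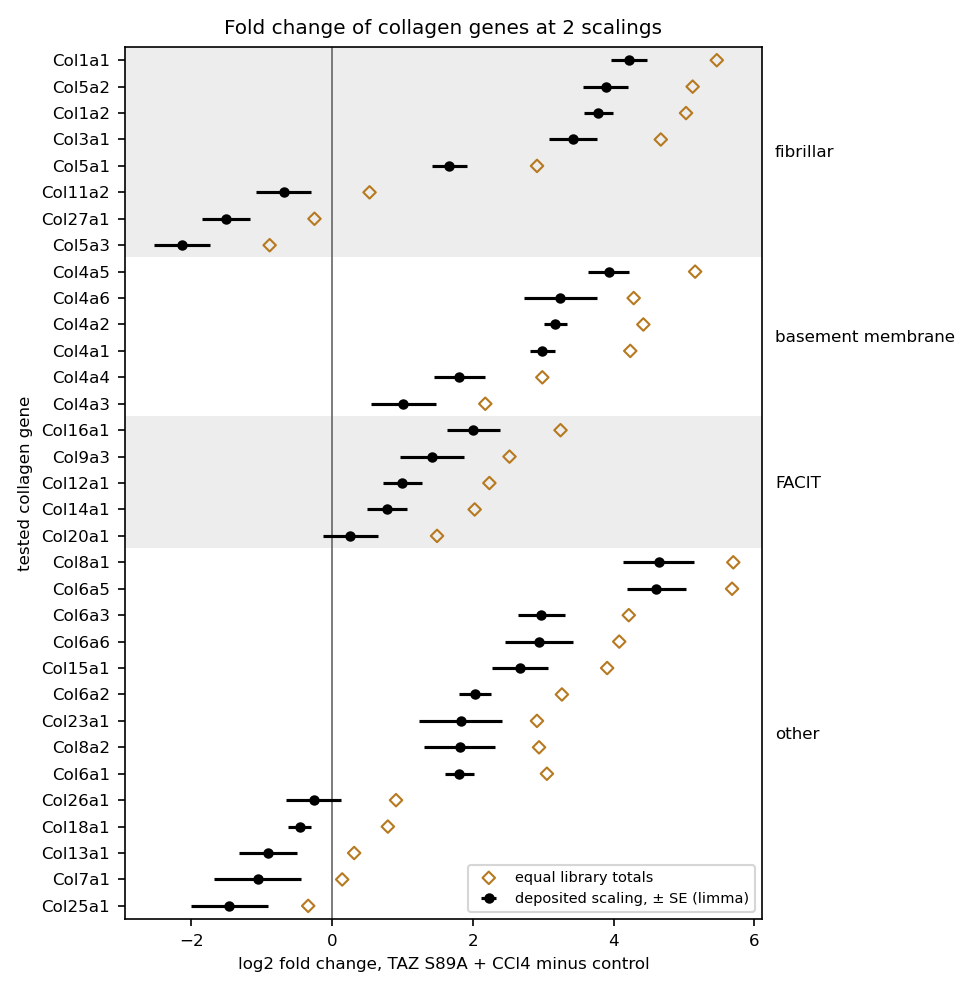
Log2 fold change of each tested collagen gene, TAZ-CCl4 minus control, at the deposited scaling (black, with the limma standard error) and at equal library totals (open diamonds), by class. Col8a1, Col6a5 and Col1a1 lie furthest right at 4.64, 4.61 and 4.22, while Col5a3 and Col27a1 lie furthest left among the fibrillar genes at -2.14 and -1.50.

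Of the 6 type IV genes, 5 rose. They lie in 3 head-to-head pairs, and the chains of a pair are known to join in the same molecules. Col4a1 (chromosome 8, 11198423 to 11312826) and Col4a2 (chromosome 8, 11312805 to 11449287), whose promoter windows are printed above, form the common basement membrane network. Col4a1 stood at 624, 559.5 and 394 in the controls and 4447, 3329, 4367, 3662 and 4888 in the TAZ-CCl4 libraries. Col4a2 stood at 465, 370.0 and 335 in the controls against 4368, 3241, 3463, 2783 and 3802 in the TAZ-CCl4 libraries. All 5 TAZ-CCl4 libraries were several times above every control in both genes, and they spread less than in the type I genes. The log2 fold changes were 2.99 ± 0.18 and 3.17 ± 0.17 (limma, adjusted p = 9.86e-07 and 4.37e-07).

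The X-linked pair, known from the basement membranes of smooth muscle and kidney, also rose. Col4a5 (chromosome X, 141475385 to 141689234) went from 31.9, 50.9 and 52.4 in the controls to 707, 394, 757, 1028 and 697 in the TAZ-CCl4 libraries, a log2 fold change of 3.93 ± 0.29 (limma, adjusted p = 2.42e-06), and no library overlapped the other group. Col4a6 (chromosome X, 141165403 to 141474076) was near the floor in the controls at 5.63, 2.24 and 4.45 and reached 39.8, 83.6, 20.1, 79.4 and 35.5 in the TAZ-CCl4 libraries, high in replicates 2 and 4 and low in replicate 3, with a log2 fold change of 3.24 ± 0.52 (limma, adjusted p = 0.000335). The remaining pair, best known from the kidney filter, was low throughout. Col4a4 (chromosome 1, 82448423 to 82586849) stood at 18.3, 10.5 and 16.3 in the controls against 66.4, 29.2, 54.5, 73.5 and 58.4 in the TAZ-CCl4 libraries, a log2 fold change of 1.81 ± 0.36 (limma, adjusted p = 0.00147). It lost its call under quantile normalisation (0.74). Col4a3 (chromosome 1, 82586921 to 82722059), 71 bases away on the other strand, stood at 21.4, 25.4 and 5.996 in the controls against 30.7, 29.1, 27.7, 25.6 and 47.2 in the TAZ-CCl4 libraries. Its groups just failed to overlap, with replicate 5 the highest, but it did not pass (log2 fold change 1.01 ± 0.46; limma, adjusted p = 0.0801), and it passed at equal totals (2.18; limma, adjusted p = 0.000783) and without control replicate 2 (1.37; limma, adjusted p = 0.0443).

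Of the 5 tested FACIT genes, 4 were higher, by 0.78 to 2.01 on the log2 scale. Col12a1 (chromosome 9, 79598991 to 79718831), found in tissue under tension, stood at 108, 73.4 and 56.7 in the controls and 127, 134, 145, 142 and 248 in the TAZ-CCl4 libraries, with replicate 5 apart from 4 closely spaced libraries. Its log2 fold change was 0.999 ± 0.28 (limma, adjusted p = 0.0104), and its call was lost under quantile normalisation (0.33) and without control replicate 3 (limma, adjusted p = 0.0569). Col14a1 (chromosome 15, 55307750 to 55520803), the most abundant FACIT gene of the control liver, stood at 363, 668 and 590.2 in the controls against 1076, 608, 1205, 638 and 1157 in the TAZ-CCl4 libraries. Replicates 2 and 4 of the TAZ-CCl4 group lay within the range of the controls. It passed narrowly (log2 fold change 0.78 ± 0.29; limma, adjusted p = 0.0355), and the call was lost without control replicate 1 or 3, without TAZ-CCl4 replicate 1, 3 or 5, and in 2 further settings, with adjusted p-values up to 0.174 (limma). Col16a1 (chromosome 4, 130047840 to 130099283), a FACIT-like chain, rose from 62.5, 84.9 and 118 in the controls to 261, 205, 299.7, 711 and 445 in the TAZ-CCl4 libraries, highest in replicate 4, with a log2 fold change of 2.01 ± 0.38 (limma, adjusted p = 0.000996). Col9a3 (chromosome 2, 180597790 to 180622189), a cartilage fibril-surface chain, stood at 11.1, 3.98 and 7.004 in the controls against 15.1, 12.7, 21.9, 30.5 and 24.6 in the TAZ-CCl4 libraries (log2 fold change 1.42 ± 0.45; limma, adjusted p = 0.0197). The groups did not overlap, but the call was lost under quantile normalisation (0.27) and without control replicate 2 (limma, adjusted p = 0.0832). Its annotated exons share 6.07% of their bases with Tcfl5 on the opposite strand, which stood at a mean of 1.78 and 0.308. Col20a1 (chromosome 2, 180986535 to 181018363) stood at 81.4, 38.8 and 98.99 in the controls against 43.5, 70.7, 112, 104 and 101 in the TAZ-CCl4 libraries, with overlapping groups, and did not pass (log2 fold change 0.26 ± 0.39; limma, adjusted p = 0.577), though it passed at equal totals (1.49; limma, adjusted p = 0.00335).

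All 5 tested genes of type VI, the beaded microfibrils that link cells to fibrils, rose, each without overlap of the groups. In the common molecule a chain each from Col6a1, Col6a2 and Col6a3 join, and the first 2 lie 85.2 kb apart on chromosome 10. Col6a1 (chromosome 10, 76708792 to 76726168) went from 102, 153 and 168 in the controls to 532, 487, 597, 366 and 476 in the TAZ-CCl4 libraries, and Col6a2 (chromosome 10, 76595762 to 76623630) from 60.96, 83.3 and 115 in the controls to 391, 328, 393, 269 and 354 in the TAZ-CCl4 libraries. These 2 genes varied little within the TAZ-CCl4 group, and both were lowest there in replicate 4. Col6a3 (chromosome 1, 90765923 to 90843971) went from 103, 90.2 and 175 in the controls to 859, 509.9, 1060.3, 968 and 1563 in the TAZ-CCl4 libraries, lowest in replicate 2 and highest in replicate 5. Their log2 fold changes were 1.81 ± 0.21, 2.03 ± 0.22 and 2.97 ± 0.33 (limma, adjusted p = 4.00e-05, 2.90e-05 and 3.10e-05). The alternative chains Col6a5 (chromosome 9, 105856078 to 105960643) and Col6a6 (chromosome 9, 105687809 to 105828160), which can stand in for the alpha 3 chain, were near the floor in the controls. Col6a5 went from 2.88, 13.7 and 4.57 in the controls to 154, 139.7, 141, 163 and 248 in the TAZ-CCl4 libraries and Col6a6 from 13.4, 9.33 and 4.32 in the controls to 34.2, 71.1, 52.4, 109 and 123 in the TAZ-CCl4 libraries. Their log2 fold changes were 4.61 ± 0.42 and 2.95 ± 0.48 (limma, adjusted p = 7.69e-06 and 0.000409), while their neighbour Col6a4 stayed at 0 to 4.40 in all 8 libraries.

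Type VIII, a short-chain network of vessel walls, rose from near the floor. Col8a1 (chromosome 16, 57624258 to 57754737) stood at 1.89, 8.44 and 10.8 in the controls and 123, 98.3, 178, 208 and 312 in the TAZ-CCl4 libraries, a log2 fold change of 4.64 ± 0.51 (limma, adjusted p = 2.77e-05). Col8a2 (chromosome 4, 126286793 to 126314330) stood at 11.01, 7.04 and 5.83 in the controls against 28.2, 48.3, 12.4, 55.4 and 23.9 in the TAZ-CCl4 libraries, a smaller change of 1.82 ± 0.50 (limma, adjusted p = 0.00967). The lowest TAZ-CCl4 library, replicate 3, was only just above the highest control in Col8a2, and the call was lost under quantile normalisation (0.71).

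The 2 multiplexins, collagens with an endostatin-like end that sit at basement membranes, went opposite ways at the deposited scaling. Col15a1 (chromosome 4, 47208161 to 47313167) went from 207, 113 and 108 in the controls to 722, 388, 1471, 974 and 1232 in the TAZ-CCl4 libraries, lowest in replicate 2, with a log2 fold change of 2.66 ± 0.40 (limma, adjusted p = 0.000223). Col18a1 (chromosome 10, 77052178 to 77166548), the most abundant collagen gene in every library, stood at 16728, 19521 and 18440.3 in the controls and 13371, 15897, 13935, 11248 and 12207 in the TAZ-CCl4 libraries. Every TAZ-CCl4 library was below every control on this scale. Col18a1 fell by 0.46 ± 0.16 (log2, SE; limma, adjusted p = 0.0323), but the sign turned to 0.79 at equal totals (limma, adjusted p = 0.00140) and to 0.96 under quantile normalisation, so its direction depends on the scaling. The fall was also not called without control replicate 1, 2 or 3 or without TAZ-CCl4 replicate 5 in turn, with adjusted p-values of up to 0.116 in those 4 fits (limma).

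The membrane-anchored chains, the anchoring fibril gene and type XXVI were low and gave few calls. Col23a1 (chromosome 11, 51289920 to 51583918) stood at 22.8, 3.79 and 2.82 in the controls and 17.1, 38.2, 22.9, 26.4 and 29.1 in the TAZ-CCl4 libraries. Control replicate 1 lay inside the TAZ-CCl4 range, and the log2 fold change was 1.83 ± 0.59 (limma, adjusted p = 0.0211), with the call lost under quantile normalisation (0.64) and without control replicate 2 or 3 (limma, adjusted p = 0.0863 and 0.0972). Col25a1 (chromosome 3, 130131501 to 130599877) stood at 7.41, 36.6 and 20.5 in the controls against 3.89, 7.60, 4.45, 7.63 and 6.91 in the TAZ-CCl4 libraries, with overlapping groups, called lower at -1.46 ± 0.55 (limma, adjusted p = 0.0400). Its call was lost in 9 of the settings tried, among them equal totals (-0.34) and each fit without control replicate 2 or 3 or TAZ-CCl4 replicate 1, 3 or 5, with adjusted p-values of up to 0.590 (limma). Col13a1 (chromosome 10, 61838236 to 61979108) stood at 49.5, 77.9 and 55.03 in the controls against 29.03, 68.5, 24.9, 17.6 and 34.4 in the TAZ-CCl4 libraries, with replicate 2 of the TAZ-CCl4 group inside the control range (log2 fold change -0.91 ± 0.41; limma, adjusted p = 0.0777). It was called lower without that library (-1.18; limma, adjusted p = 0.0109). Col7a1 (chromosome 9, 108953586 to 108984875), which ties epithelial basement membranes to the stroma, stood at 88.2, 30.3 and 27.6 in the controls against 7.36, 10.3, 24.9, 43.99 and 33.4 in the TAZ-CCl4 libraries (log2 fold change -1.06 ± 0.62; limma, adjusted p = 0.162). Col26a1 (chromosome 5, 136741759 to 136883209) stood at 20.8, 15.8 and 17.4 in the controls against 11.1, 13.3, 10.5, 24.8 and 17.8 in the TAZ-CCl4 libraries (log2 fold change -0.26 ± 0.39; limma, adjusted p = 0.579). The groups of the last 3 genes overlapped, none of these genes passed, and all 3 turned sign at equal totals (0.31, 0.14 and 0.91). Under quantile normalisation all 3 were called lower (-1.84, -2.06 and -1.38).

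The 11 collagens under the filter were at most 24.8 normalised counts in any library. Col2a1, Col10a1 and Col11a1, collagens of cartilage and its growth plate, were listed at 0 in all 3 controls and reached 6.27, 12.8 and 11.4 in the highest TAZ-CCl4 library. Col11a1 was above 0 in all 5 TAZ-CCl4 libraries (1.19 to 11.4). Col9a1 was at 0 to 1.20 in all libraries, and Col9a2 at 0 to 1.04 in the controls and 0.852 to 7.37 in the TAZ-CCl4 libraries. Col17a1, the hemidesmosome collagen, reached 3.59 in 1 control and at most 1.03 in the TAZ-CCl4 group, and Col28a1 stood at 0 to 1.98 and 1.79 to 5.90. Of the 11, 5 had the higher mean in the controls: Col9a1, Col17a1, Col22a1 (2.14 to 24.8 against 0 to 1.94), Col24a1 (4.57 to 11.6 against 0.580 to 5.29) and Col19a1 (0 to 2.41 against 0 in every TAZ-CCl4 library). In a fit of all 22625 genes above 0 anywhere, Col11a1 and Col9a2 were called higher (log2 fold change 2.27 and 1.61; limma, adjusted p = 0.00525 and 0.0299) and Col22a1, Col24a1 and Col19a1 lower (-2.22, -1.62 and -1.10; limma, adjusted p = 0.0207, 0.0417 and 0.0409). Of all 22625 genes in that fit, 4958 were called higher and 4383 lower. The values of the 11 collagens are so low that the added pseudocount of 1 shapes the fold changes.

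The summed collagen genes took a larger share of the library total in the TAZ-CCl4 group. No scaling between libraries can move a share, but a share compares the libraries at equal totals. At equal totals 76.3% of all tested genes were called higher. Their median log2 fold change was then 1.26, against 2.99 over the tested collagens. The share was 0.0759, 0.0940 and 0.0930% in the controls and 0.281, 0.267, 0.307, 0.329 and 0.337% in the TAZ-CCl4 libraries, or 0.0876% ± 0.0102 (SD, n = 3) and 0.304% ± 0.0303 (SD, n = 5). No TAZ-CCl4 library overlapped a control. Without Col18a1 the share was 0.0295% ± 0.00152 and 0.204% ± 0.0412. With the major urinary protein and mitochondrial genes left out of the total it was 0.123% ± 0.00212 and 0.320% ± 0.0340.

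The make-up of the collagen mRNA changed with it. Levels were divided by the length of the longest coding transcript in GENCODE release M21, and each gene was given as a percent of the summed collagen level per kilobase in its library. Col18a1 made up 66.2, 71.8 and 69.5% in the controls and 39.6, 46.01, 33.8, 29.4 and 28.4% in the TAZ-CCl4 libraries, so that every TAZ-CCl4 library lay below every control. In the controls Col5a3 (11.5% ± 1.39, SD) and Col27a1 (6.94% ± 1.47) came next, and they were down to 2.13% ± 1.61 and 1.88% ± 1.08 in the TAZ-CCl4 libraries. Col3a1 went from 1.56% ± 0.187 to 12.2% ± 4.63, Col1a2 from 0.808% ± 0.0104 to 7.88% ± 1.59 and Col1a1 from 0.454% ± 0.0728 to 6.02% ± 1.52. The type IV class as a whole went from 3.22% ± 0.664 to 19.2% ± 3.02, mostly Col4a1 (9.20% ± 1.26) and Col4a2 (8.13% ± 1.86). The fibrillar class overlapped between groups, at 24.8, 19.6 and 21.99% and 23.4, 27.2, 34.8, 41.5 and 39.1%, and Col5a3 with Col27a1 made up most of the controls' fibrillar share. FACIT collagens made up 2.68% ± 0.404 and 3.76% ± 0.618.

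**Figure D3:**
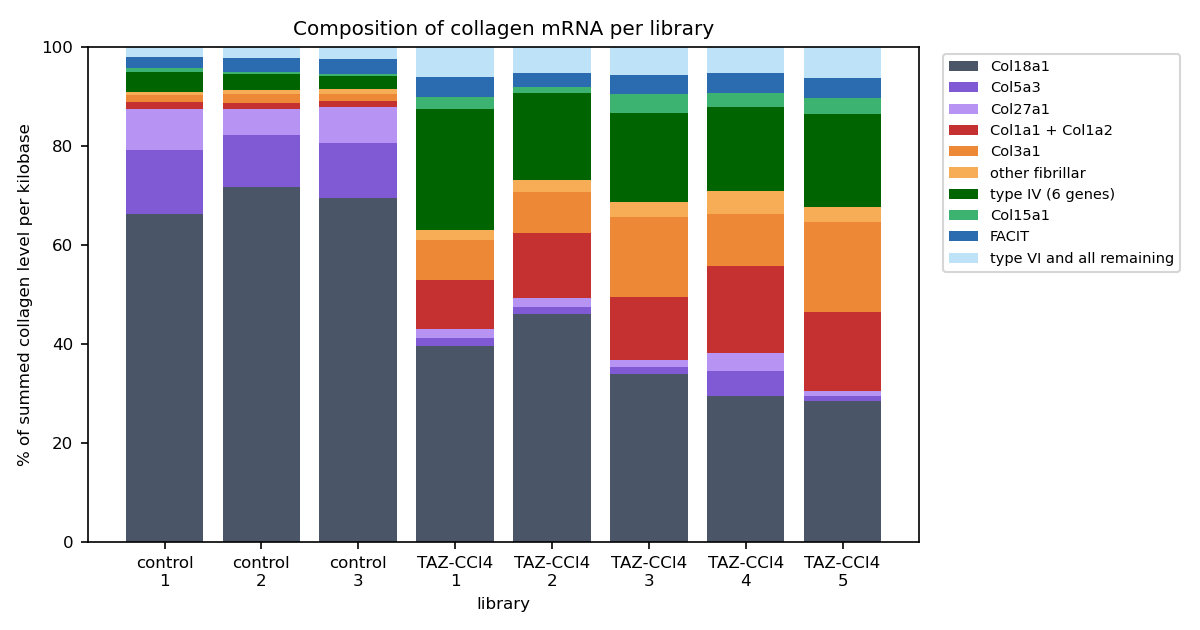
Each bar is a library, and its segments are collagen genes or classes as a percent of the summed collagen level per kilobase. Col18a1 shrinks from 69.1% ± 2.80 to 35.5% ± 7.37 (mean ± SD) while the type I, type III and type IV segments widen, and the Col5a3 and Col27a1 segments stay widest among the TAZ-CCl4 bars in replicate 4.

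By level per kilobase, the order in the controls was Col18a1 (3258), Col5a3 (541), Col27a1 (325), Col14a1 (83.7) and Col4a1 (79.5 normalised counts per kilobase, means of 3). Col14a1 and Col4a1 lay within each other's spread, with SDs of 24.6 and 17.99. In the TAZ-CCl4 libraries it was Col18a1 (2383), Col3a1 (859), Col4a1 (626), Col4a2 (548), Col1a2 (541) and Col1a1 (416, means of 5). From Col4a1 to Col1a1 each gene differed from the next by less than either SD (92.5 to 138). Col3a1 varied widely, with an SD of 409 that spans its distance to Col4a1, whose own SD was 95.4. Col1a1 moved from rank 11 of 44 to rank 6, Col5a3 from 2 to 9 and Col27a1 from 3 to 11.

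Ratios between 2 collagen genes within a library ask whether the genes kept step. They too are free of the scaling, apart from the pseudocount of 1 in the log2 ratios, which weighs on low genes. Differences are of the log2 ratio, TAZ-CCl4 minus control. Of 14 ratios computed, 8 separated the groups without overlap at the smallest p that 3 against 5 libraries allow (exact two-sided permutation test, p = 0.0357). Adjusted over the 14 pairs this is 0.0625, so none passed 0.05 after adjustment. Some of the 8 separated only narrowly. The nearest control and TAZ-CCl4 log2 ratios were 0.0623 and 0.0654 in Col6a3 to Col6a1, -0.539 and -0.526 in Col1a1 to Col1a2, and 1.437 and 1.418 in Col3a1 to Col1a1. Levels per kilobase put Col1a1 at 0.562 ± 0.0905 to 0.762 ± 0.0824 times Col1a2 (mean ± SD, controls to TAZ-CCl4), a difference of 0.44 in the log2 ratio. Col3a1 per Col1a1 went from 3.55 ± 1.08 to 2.04 ± 0.619, a difference of -0.80. The type V chains separated further. Col5a1 stood at 2.30 ± 0.556 times Col5a2 in the controls and 0.508 ± 0.181 in the TAZ-CCl4 libraries (difference -2.22), so the chain with the higher level changed from Col5a1 to Col5a2. Col5a1 per Col1a1 went from 0.934 ± 0.264 to 0.158 ± 0.0401 (difference -2.55). Col12a1 per Col1a1 went from 0.327 ± 0.106 to 0.0344 ± 0.00793 (difference -3.22), the widest shift among the 14. Col6a3 per Col6a1 went from 0.358 ± 0.103 to 0.841 ± 0.359 (difference 1.16), Col8a1 per Col8a2 from 0.910 ± 0.718 to 6.37 ± 4.86 (difference 2.82) and Col18a1 per Col15a1 from 131 ± 48.7 to 16.7 ± 12.3 (difference -3.12).

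The other 6 ratios overlapped. Col4a1 to Col4a2, the genes that share a start region, had log2 ratios of 0.426, 0.595 and 0.232 in the controls and 0.0259, 0.0387, 0.334, 0.396 and 0.362 in the TAZ-CCl4 libraries (difference -0.19; exact permutation test, p = 0.25), while each gene alone rose about as much as the other. Col6a1 to Col6a2 differed by -0.22 (exact permutation test, p = 0.107), Col4a1 to Col1a1 by -1.24 (exact permutation test, p = 0.0714), and Col4a5 to Col4a6, Col4a3 to Col4a4 and Col12a1 to Col14a1 by 0.69, -0.80 and 0.22 (exact permutation test, p = 0.321, 0.286 and 0.821). A p above the threshold does not show that the ratios were equal.

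**Figure D4:**
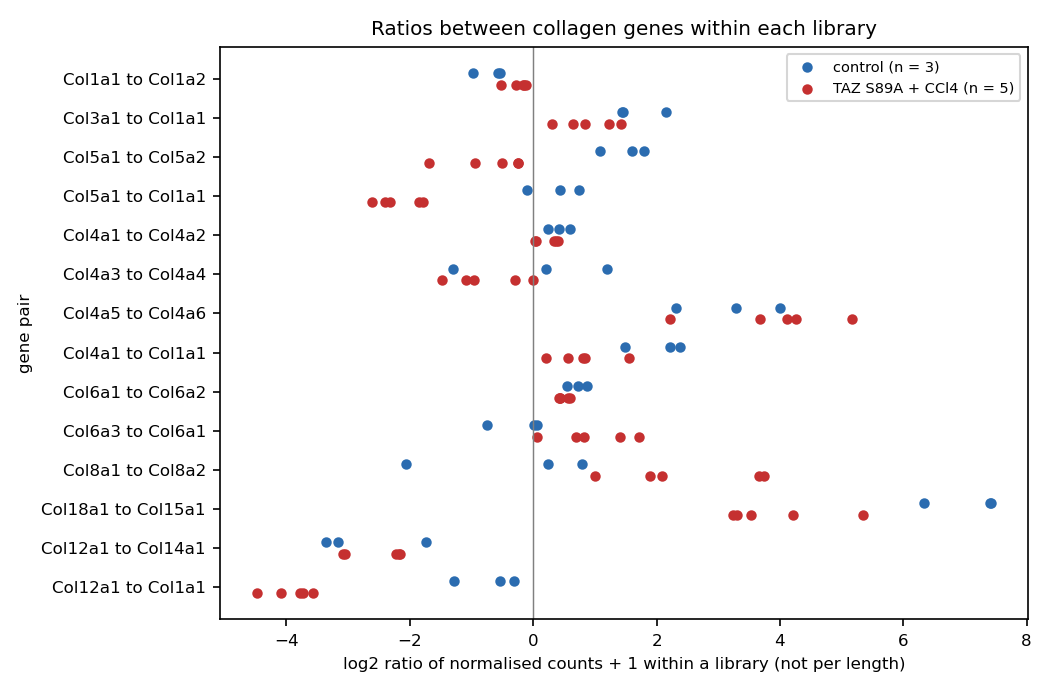
Log2 ratio of normalised counts plus 1 between 2 collagen genes within each library, not per length, for 14 pairs, with controls in blue and TAZ-CCl4 libraries in red. Col5a1 to Col5a2, Col5a1 to Col1a1, Col18a1 to Col15a1 and Col12a1 to Col1a1 are the pairs whose points move furthest left, and Col4a1 to Col4a2 overlaps between groups.

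The genes that fold, trim, join and sense collagens were read from 5 lists, against a background of 32.4% higher and 29.8% lower over all tested genes (76.3% and 6.39% at equal totals). Of 21 tested genes that modify and fold collagen chains, 12 were higher, 6 lower and 3 not called, and the median over the list was 0.62 (log2). The widest rises were in Colgalt2 (3.48), which adds galactose to collagen, and Serpinh1 (2.95), the collagen chaperone HSP47, which went from 177 ± 40.3 to 1469 ± 565. The 6 lower genes were P4hb (-0.92), Plod1 (-0.76), Ppib (-0.83), Mia3 (-0.87), Mia2 (-1.14) and Sec23a (-0.62), which serve folding and export of many secreted proteins besides collagen. At equal totals the sign of all 6 turned (0.11 to 0.63), none was lower and 19 of the 21 genes were higher, against 76.3% of all tested genes. P4ha2 (0.18), P3h1 (0.05) and Fkbp14 (0.09) did not pass at the deposited scaling.

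Of 5 tested genes that trim procollagen ends, 3 were higher, among them Pcolce (3.80), an enhancer of the C-propeptide protease, and Adamts14 (2.98), an N-propeptide protease. The C-propeptide protease gene itself, Bmp1, stood at 3038 ± 115 and 2771 ± 537 and did not pass (-0.15), although at equal totals it was higher (1.10; limma, adjusted p = 9.56e-05). Pcolce2 (1.25) did not pass. All 6 crosslinking genes were higher, led by Lox (5.76) and Loxl2 (2.93), lysyl oxidases that join chains between molecules. Of 8 tested collagen receptors, 5 were higher, led by Ddr1 (5.79), a receptor kinase of epithelia that went from 41.4 ± 14.9 to 2370.3 ± 816, and Itga2 (4.63). Itga10 was lower (-1.16, and 0.07 at equal totals), while Ddr2 (0.89), the receptor kinase of fibroblasts, and Itgb1 (0.23) did not pass. Of 7 tested proteases that cut collagen, 5 were higher, led by Mmp13 (4.23), the main interstitial collagenase of mice, and Ctsk (3.67). Mmp9 (1.07) and Fap (1.17) did not pass, and Mmp1a and Mmp1b were at 0 in all 8 libraries. Lox, Itga2, Mmp13 and Ctsk had control means of 4.06, 4.13, 2.80 and 9.64, so they passed the filter through the TAZ-CCl4 group alone. With a mean of at least 10 in both groups, 5 of 5 crosslinking genes, 4 of 7 receptors and 2 of 4 proteases were higher. Over all genes so filtered the share was 28.5%.

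Markers of collagen-making and other cell types moved in the same libraries, and their part in the collagen changes was not tested. Over all tested genes 32.4% were higher and 29.8% lower, and 76.3% and 6.39% at equal totals. With a mean of at least 10 in both groups, 28.5% were higher and 31.3% lower. So filtered, 8 of 14 stellate cell and myofibroblast and 7 of 9 portal fibroblast and mesothelial markers were higher, and 0 were lower. Of the cholangiocyte and progenitor markers 8 of 9 were then higher, and of the macrophage and leukocyte markers 6 of 8. Of 15 stellate cell and myofibroblast markers, 9 were higher and 0 lower, and their sum was 0.00700 to 0.0146% of the library total in the controls and 0.0498 to 0.0608% in the TAZ-CCl4 libraries. Pdgfrb (2.66), a growth factor receptor of stellate cells, and Cygb (2.49) led among those above 50 normalised counts, while Des (0.30), Lrat (-0.65, and 0.59 at equal totals), Reln (-0.38, and 0.87), Hand2 (0.02), Dcn (0.19) and Ngfr (1.01), several of them markers of quiescent stellate cells, did not pass. Of 11 tested portal fibroblast and mesothelial markers, 7 were higher (Cd34 at 4.17 and Fbln1 at 3.19 led) and 1, the mesothelial gene Upk3b, was lower (-3.45). Msln (-0.85, and 0.33 at equal totals), Wt1 (0.86) and Gpm6a (-0.04, and 1.14) did not pass, and the list summed to 0.00107 to 0.00145% of the library total in the controls and 0.0147 to 0.0233% in the TAZ-CCl4 libraries.

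Of 11 tested cholangiocyte and progenitor markers, 10 were higher, led by the duct keratin gene Krt7 (5.15) and Spp1 (4.77), with Muc1 (0.35) not passing, and their sum was 0.0117 to 0.0131% of the library total in the controls and 0.278 to 1.04% in the TAZ-CCl4 libraries. Spp1 made up 78.1 to 89.6% of the sum in the TAZ-CCl4 libraries. Replicate 4, the library with the highest Col5a3, Col27a1 and Col5a2 of its group, held the highest of these sums and the highest value of 7 of the 12 listed genes, but without Spp1 its sum was 0.108% against 0.104% in replicate 1. Of 14 endothelial markers, 7 were higher (Emcn at 2.41 and Cdh5 at 1.93 led) and 3 lower. The lower genes were Stab2 (-1.23, and 0.015 at equal totals), Clec4g (-2.65) and Rspo3 (-1.40), markers of sinusoidal endothelium and of central veins. The other 4 did not pass (Kdr, Lyve1, Eng and Tek, the last at -0.04 and, at equal totals, 1.20). At equal totals 0 of the 14 were called lower and 11 higher. The 14 markers summed to 0.00978 to 0.0193% of the library total in the controls and 0.0386 to 0.0529% in the TAZ-CCl4 libraries. A share compares the libraries at equal totals. In normalised counts the sums overlapped, at 3428 to 5790 in the controls and 5222 to 7147 in the TAZ-CCl4 libraries. Of 10 tested macrophage and leukocyte markers, 8 were higher, led by Itgam (4.79) and Lyz2 (4.10), and 2 (Clec4f at -2.35 and Cd79a at -0.72, and 0.47 at equal totals) did not pass, with a sum of 0.00463 to 0.00765% of the library total in the controls and 0.0712 to 0.129% in the TAZ-CCl4 libraries. Of 12 hepatocyte markers, 0 were higher and 11 lower, from Hnf4a (-0.96, and 0.29 at equal totals), the hepatocyte transcription factor, to Cyp2e1 (-7.41), the enzyme that activates CCl4, with Alb not passing (-1.16, and 0.09 at equal totals), and at equal totals 6 of them were lower.

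Within the TAZ-CCl4 group the collagens did not rise and fall as one. Replicate 4 held the highest value of 11 of the 33 tested genes and replicate 5 of 10, while replicates 1 and 2 each held the lowest value of 11. Col4a2 and Col6a1 were lowest in replicate 4, in which Col5a2, Col16a1 and Col4a5 were highest. The ratio of the highest to the lowest TAZ-CCl4 library was 1.41 in Col18a1, 1.47 in Col4a1, 2.19 in Col1a1, 2.86 in Col3a1 and 4.12 in Col5a3. Of the 23 collagens called higher, 17 kept the call in each of the 19 alternatives in which they were tested, and the exceptions were Col4a4, Col8a2, Col9a3, Col12a1, Col14a1 and Col23a1. None of the 4 lower genes kept its call in all of them. Col5a3 lost it in 1 setting, Col27a1 in 2 and Col25a1 in 9. Col18a1 lost it in 6 and turned sign in others.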

How the data were processed

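Liver RNA of 3 control and 5 TAZ-CCl4 libraries was compared. The deposited signal values are normalised counts by gene, which the authors made with kallisto and DESeq2, per the name of the deposited table, on build mm10, per the submitters' processing notes. Versions, annotation and filters are not given in the sources that were used here. Each value is a gene count divided by a scaling factor, neither per length nor per library total, and does not separate isoforms or, where genes overlap, the strands. The low values do not give back whole reads: per library, between 47.3 and 66.8% of those below 10 fell on a multiple of the most frequent step (tolerance 0.03), so no count model was run. Estimated from that step, depth ranged from 18.6 to 24.9 M reads per control and from 12.4 to 33.8 M reads per TAZ-CCl4 library.

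Genes with a mean of at least 10 were compared as log2(value + 1), which understates the change of low genes, with limma 3.58.1 under R 4.3.3, using the trend option, no covariate and Benjamini-Hochberg adjustment over all 14171 tested genes at 0.05. Ratios and shares were computed in Python 3.11.15, and ratios were tested exactly with a two-sided permutation test of group labels, 56 assignments in all (scipy 1.17.1). Positions and transcript lengths are from GENCODE release M21 of the same build. All collagen genes are named. From the 12 gene lists, the text names members called lower or not called. It also names the 2 that rose most with a mean of 50 or more in the higher group. The hepatocyte list is an exception, as only the ends of its 11 lower members are named. Those ends, and members at 0, were added after their values were seen. The members, lists and tests were chosen with earlier results of these data known. The limma fit was tested on simulated data. Scaling, pseudocount, filter, weights, a replicate block and leaving out each library were varied.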

Additional observations from a re-analysis of the deposited data

Results flagged for a closer look

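Of 48 group results examined for a library far from the others of its group, 5 were flagged, and chance flags about 1 in 20 groups. The rule used a critical ratio for 5 libraries, the size of the TAZ-CCl4 group, so the flags say nothing about the 3 controls. Replicate 4 stood apart in Col5a3, at 2088 normalised counts against 507 to 710.0 in the other TAZ-CCl4 libraries, and in Col27a1, at 1924 against 526 to 802. The same library had the highest summed cholangiocyte and progenitor markers, 1.04% of its total against 0.278 to 0.475% in the other 4. That gap was mostly Spp1: without it the sum was 0.108% in replicate 4, 0.104% in replicate 1 and 0.0525 to 0.0661% in the other 3, and Krt7, Krt19, Cldn4, Cftr and Muc1 were highest in other libraries. Replicate 4 also had the highest estimated depth, 33.8 M reads against 12.4 to 14.4 M in the other TAZ-CCl4 libraries. The part of the markers and of the depth in the Col5a3 and Col27a1 values was not tested. Without replicate 4, both genes stayed lower at the deposited scaling.

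Replicate 5 stood apart in Col12a1, at 248 against 127 to 145, in Col6a5, at 248 against 139.7 to 163, and in Col4a3, at 47.2 against 25.6 to 30.7.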

How the results depend on the processing

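Over the 19 alternatives, 18 to 26 collagen genes were called higher, each within 1.5 times the reported 23 (20 to 23 when single libraries were left out). The number tested differed with the filter. At a mean of at least 50, 18 of 22 were higher, beside 3619 of all 11897 tested genes. With no filter 25 of 44 were higher, beside 4958 of all 22625. At equal totals 26 of 33 were higher, close to the 76.3% of all tested genes. With the major urinary protein and mitochondrial genes left out of the totals 26 of 33 were higher, beside 8914 of all 14171 tested genes. The count called lower, 4 at the deposited scaling, was 0 at equal totals and 7 under quantile normalisation. It was 1 at equal totals without the major urinary protein and mitochondrial genes. With a replicate block over libraries 1 to 3 of both groups it was 2. Over all 14171 tested genes the counts called lower were 4230, 906, 4227, 1512 and 3575 in the same order. The collagen count called lower ran from 2 to 5 when single libraries were left out. In those fits 4015 to 4586 of all tested genes were higher and 3600 to 4269 lower. With the replicate block 18 collagen genes were higher, beside 3791 of all 14171 tested genes. Same-numbered libraries did not deviate together (correlations -0.0665, -0.0640 and -0.0883), so the numbers only name the libraries. Signs turned at equal totals for Col18a1 (0.79), Col26a1 (0.91), Col11a2 (0.53), Col13a1 (0.31) and Col7a1 (0.14). They also turned at equal totals without the major urinary protein and mitochondrial genes for Col18a1 (0.37), Col26a1 (0.52) and Col11a2 (0.13), and under quantile normalisation for Col18a1 (0.96), Col20a1 (-0.55) and Col4a3 (-0.085). With single libraries left out, Col20a1 ran from -0.13 to 0.53 and turned without control replicate 2, and the log2 ratio of Col12a1 to Col14a1 ran from -0.079 to 0.73 and turned without control replicate 3. The cause was not tested. With all collagen genes counted, the difference in the collagen share of the total ran from 0.197 to 0.226 percentage points in all its alternatives. Without Col18a1 it was 0.174 percentage points. A ratio cannot reach p = 0.05 without a library, as the smallest exact p is then 0.0952 or 0.0571. Values near 10 in low genes rest on few reads, which limits their folds.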
